A study of Homo sapiens with 12 samples.

Results

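Classical cadherins and their catenin partners were measured by RNA sequencing in human embryonic stem cells (hESCs) of the line WA26 with and without UBQLN1, a shuttle protein that carries ubiquitinated proteins to the proteasome. The 10 genes were taken by symbol from 28278 genes in the count table: the classical cadherins CDH1, CDH2, CDH3 and CDH4, the type II cadherins CDH6 and CDH11, and the catenins CTNNA1, CTNNB1, CTNND1 and JUP. All 10 passed the filter on low counts, which left 15916 tested genes. There were 4 groups of 2 libraries: wild-type (WT) cells at normal O2, UBQLN1 knockout (KO) cells at normal O2, KO kept at 5% O2, and KO given NAC (N-acetylcysteine, a thiol antioxidant), for which the labels name no O2 level. UBQLN1 was targeted in all KO groups by CRISPR/Cas9 with a pair of guides. The study describes 2 clones per genotype, and which clone gave which library is not stated, so the p-values measure the spread between these libraries, which may be that of clones or of cultures of one clone. Treated WT cultures (NAC or 5% O2) were not used here, so any effect of NAC or low O2 could be measured in KO cells only. The paper used DMSO as the control for NAC, and it describes the time in culture before sequencing differently in different places. The labels of the KO libraries at normal O2 name no vehicle, passage or time. Differences with NAC therefore cannot be told apart from those of vehicle, passage or time in culture. Differences at 5% O2 likewise cannot be told apart from those of passage or time in culture.

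Classical cadherins are calcium-dependent adhesion receptors that bind cadherins on the next cell. Inside the cell, the cadherin tail binds beta-catenin (CTNNB1) or plakoglobin (JUP) at one site and p120-catenin (CTNND1) at another, and alpha-catenin (CTNNA1) links beta-catenin to actin. Beta-catenin not held at the membrane is phosphorylated by a destruction complex built on APC and AXIN and degraded, or it enters the nucleus and acts with TCF/LEF factors as the effector of canonical WNT signalling. hESCs grow as epithelial colonies joined by E-cadherin (CDH1), and a switch from CDH1 to N-cadherin (CDH2) is a known mark of epithelial-mesenchymal transition and of some differentiation steps.

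Counts were scaled to library size with TMM factors (CPM), and groups were compared with edgeR's quasi-likelihood test. A gene was called at a Benjamini-Hochberg adjusted p under 0.05 over all tested genes. Library totals ran from 31236968 to 41639350 counts. UBQLN1 was at 221 and 197 CPM in the WT libraries and at 42.3 and 43.5 CPM in the KO libraries, a log2 fold change of -2.29 (SE 0.12, adjusted p = 2.5e-06). The 12 fixed hESC markers summed to between 6810 and 8170 CPM in every library, and all 12 were detected in each group. The 11 fixed fibroblast markers summed to between 531 and 643 CPM in 7 libraries and to 1060 CPM in NAC replicate 1. Of that list, LUM and DCN were at 0 in all libraries without NAC, and COL3A1 was at 0 in KO and at 5% O2. The other markers of the list were detected in each group. Neuroectoderm markers summed to 427 and 396 CPM in WT, 639 and 626 CPM in KO, 375 and 456 CPM at 5% O2, and 239 and 258 CPM with NAC. The part of these markers in the results below was not tested.

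The stretches before the starts of the 3 most abundant catenins are shown because these genes were called in opposite directions with NAC: CTNNB1 was higher, and JUP and CTNNA1 were lower. Each is the 250 bases before the gene's RefSeq start (GRCh38.p14), written 5′ to 3′ on the gene's strand. Capitals mark GCGTG, one of the cores of the hypoxia response element.
CTNNB1, chr3:41199255-41199504, plus strand: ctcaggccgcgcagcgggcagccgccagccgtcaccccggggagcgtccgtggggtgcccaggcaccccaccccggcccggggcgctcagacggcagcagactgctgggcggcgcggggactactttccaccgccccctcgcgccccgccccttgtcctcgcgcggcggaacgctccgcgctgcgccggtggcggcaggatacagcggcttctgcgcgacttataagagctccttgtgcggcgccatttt
JUP, chr17:41786712-41786961, minus strand: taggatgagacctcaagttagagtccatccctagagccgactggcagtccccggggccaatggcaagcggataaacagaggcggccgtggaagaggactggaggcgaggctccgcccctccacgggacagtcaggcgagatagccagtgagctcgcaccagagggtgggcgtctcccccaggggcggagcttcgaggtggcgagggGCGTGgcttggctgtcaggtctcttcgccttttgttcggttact
CTNNA1, chr5:138753175-138753424, plus strand: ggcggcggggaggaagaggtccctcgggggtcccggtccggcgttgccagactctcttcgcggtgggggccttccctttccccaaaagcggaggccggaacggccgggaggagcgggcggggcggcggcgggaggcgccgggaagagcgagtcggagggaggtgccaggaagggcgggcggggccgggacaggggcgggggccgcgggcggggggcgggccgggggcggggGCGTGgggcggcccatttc
The windows were GC-rich, at 74.4% for CTNNB1, 63.6% for JUP and 80% for CTNNA1, against a median of 58% over 35116 windows. JUP and CTNNA1 each held 1 GCGTG, and CTNNB1 held none. The letters ACGTG (another core of the hypoxia response element), TGACNNNGC (the antioxidant response element) and CTTTGA (the core bound by TCF/LEF factors), searched on both strands, were in none of the 3. Of all windows, 32.2% held GCGTG, 18.5% held ACGTG, 10.9% held TGACNNNGC and 11.2% held CTTTGA.

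Most cadherin mRNA in these cells was that of CDH1 and CDH3. In WT, level per kilobase of union exon length was highest for CDH1 at 88.5 ± 0.183 CPM per kb (SD, n = 2), followed among the cadherins by CDH3 at 46.1 ± 3.74, CDH2 at 5.23 ± 0.178, CDH4 at 1.52 ± 0.244, CDH11 at 0.884 ± 0.00455 and CDH6 at 0.31 ± 0.00618. Among the catenins, CTNNA1 was at 64.7 ± 4.96 CPM per kb, CTNNB1 at 50.4 ± 0.221 and JUP at 40.2 ± 3.26. CTNND1 is given no value per kilobase because it lies almost wholly within a read-through gene, as described with its values. By this length CTNNA1 and CTNNB1 lay between CDH1 and CDH3. With the longest transcript as length, CTNNA1 (149 CPM per kb) and CTNNB1 (121) lay above CDH1 (112), with CDH3 at 66.2, JUP at 56.7 and CDH2 at 11.2. By both lengths JUP lay below CDH3, and CDH2 was well below JUP and above CDH4, CDH11 and CDH6.

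**Figure D1:**
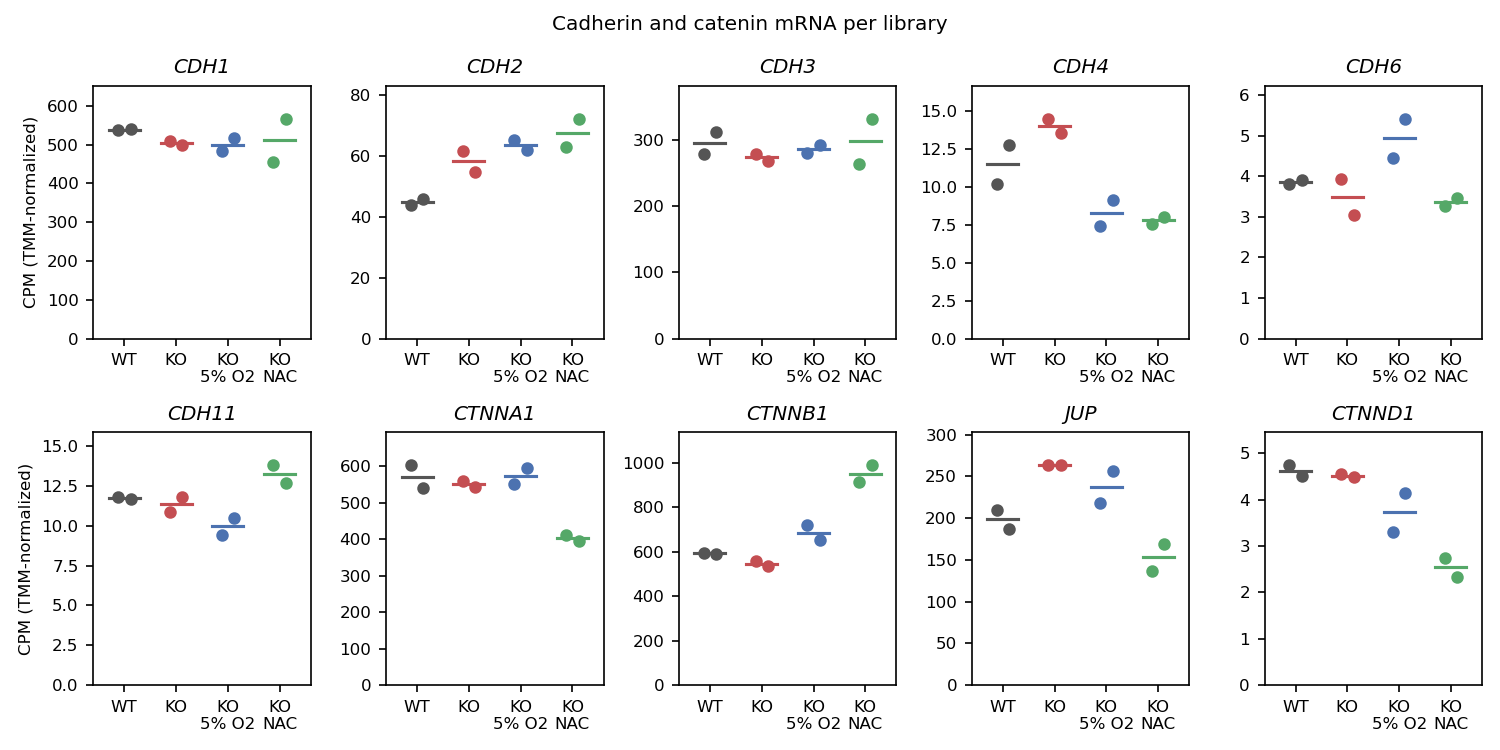
CPM of each gene (vertical axis, from 0) in the 2 libraries of WT, KO, KO at 5% O2 and KO with NAC; points are libraries and lines are group means. For CDH1 and CDH3 the NAC libraries span those of all other groups. CDH2 is lowest in both WT libraries, CTNNB1 is highest with NAC, and CTNNA1, JUP and CTNND1 are lowest with NAC.

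CDH1 encodes E-cadherin (chromosome 16, 68737292 to 68835537, plus strand). Its level was 537 and 539 CPM in WT, 510 and 498 in KO, 483 and 516 at 5% O2, and 455 and 566 with NAC. The NAC libraries lay at both ends of the whole range, and both WT libraries were above those of KO and 5% O2. No difference passed the test in the fit reported: on the log2 scale KO minus WT was -0.09 (95% interval -0.31 to 0.12), 0.02 with NAC against KO (-0.2 to 0.24) and -0.01 at 5% O2 against KO (-0.23 to 0.21). In 1 alternative, without NAC replicate 2, CDH1 was called lower with NAC than in WT (-0.24, adjusted p = 0.0473). These intervals bound any change of CDH1 in either direction but do not show that its level was equal.

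CDH3 encodes P-cadherin and lies beside CDH1 on chromosome 16 (68645310 to 68733771, plus strand). Its level was 278 and 312 CPM in WT, 278 and 268 in KO, 280 and 291 at 5% O2, and 263 and 331 with NAC. As for CDH1, NAC replicate 1 was the lowest of all libraries and NAC replicate 2 the highest. On the log2 scale, KO minus WT was -0.11 (SE 0.11, adjusted p = 0.649), 0.12 with NAC against KO (SE 0.11, adjusted p = 0.406) and 0.06 at 5% O2 against KO (SE 0.11, adjusted p = 0.773). The NAC difference passed the test in 3 alternatives: it was 0.40 (adjusted p = 0.0125; 0.39 and 0.0121 with a replicate block added) after removal of the trend that each library showed with length and GC content of transcripts, and 0.27 (adjusted p = 0.0346) without NAC replicate 1.

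CDH2 encodes N-cadherin, the cadherin of neural and mesenchymal cells (chromosome 18, 27932879 to 28177130, minus strand). It was at 43.8 and 45.9 CPM in WT, 61.6 and 54.5 in KO, 65.2 and 61.9 at 5% O2, and 62.9 and 72 with NAC. Both WT libraries were below all 6 KO libraries. In KO against WT at normal O2 the log2 fold change was 0.37 (SE 0.10, 95% interval 0.14 to 0.6), which missed the threshold (adjusted p = 0.0977), while DESeq2 called it (adjusted p = 0.0337). CDH2 was higher than WT in KO cells with NAC, by 0.59 (SE 0.10, adjusted p = 0.00124), and in KO cells at 5% O2, by 0.50 (SE 0.10, adjusted p = 0.0241). The 5% O2 call was lost without either WT library or either 5% O2 library, with adjusted p from 0.117 to 0.226, while the NAC call held in each of the alternatives run. Against KO cells at normal O2, neither condition moved CDH2 past the test, with log2 fold changes of 0.22 with NAC (adjusted p = 0.115) and 0.13 at 5% O2 (adjusted p = 0.476). Without NAC replicate 1, the library with the high fibroblast sum, CDH2 was 0.31 higher with NAC than in KO cells (adjusted p = 0.039). The comparisons with WT share the same WT libraries, so they do not count as separate evidence.

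CDH4 encodes R-cadherin, known from retina and brain (chromosome 20, 61252261 to 61940617, plus strand). It was at 10.2 and 12.8 CPM in WT, 14.5 and 13.6 in KO, 7.43 and 9.13 at 5% O2, and 7.57 and 8.05 with NAC. All 4 libraries with NAC or low O2 were below all 4 others. CDH4 fell by 0.84 on the log2 scale with NAC against KO (SE 0.17, adjusted p = 0.00196) and by 0.76 at 5% O2 against KO (SE 0.17, adjusted p = 0.0254). Neither call held once the length and GC trend was removed, with log2 fold changes of -0.28 (adjusted p = 0.199) and -0.49 (adjusted p = 0.109). The 5% O2 call was also lost without either KO or either 5% O2 library, with adjusted p from 0.0548 to 0.285. CDH4 held 241 to 559 counts per library, and 75.18% of its transcript, cut into 31-base words, also occurs on scaffolds outside the main chromosomes, so its counts depend on whether the aligner's index held those scaffolds, which is not given in the sources used here.

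CDH6 and CDH11, the type II cadherins, were expressed at low levels. CDH6 (K-cadherin, chromosome 5, 31193686 to 31329146, plus strand) was at 3.81 and 3.91 CPM in WT, 3.93 and 3.04 in KO, 4.46 and 5.42 at 5% O2, and 3.26 and 3.47 with NAC. Both 5% O2 libraries were above the other 6, but the log2 fold change against KO of 0.50 (SE 0.23) did not pass (adjusted p = 0.204). CDH11 (OB-cadherin, a cadherin of mesenchymal cells, chromosome 16, 64943753 to 65123744, minus strand) was at 11.8 and 11.7 CPM in WT, 10.9 and 11.8 in KO, 9.44 and 10.5 at 5% O2, and 13.8 and 12.7 with NAC. NAC libraries were the highest and 5% O2 libraries the lowest, and no comparison passed in the fit reported; the largest difference, NAC against 5% O2, had a log2 fold change of 0.41 (SE 0.15, adjusted p = 0.0549) and was called without NAC replicate 2 (0.47, adjusted p = 0.0381). CDH11 was above all other groups in NAC replicate 2 as well as in NAC replicate 1.

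CTNNB1, which encodes beta-catenin (chromosome 3, 41199505 to 41240443, plus strand), gave the clearest change of the 10 genes. It was at 595 and 591 CPM in WT, 557 and 536 in KO, 720 and 652 at 5% O2, and 913 and 989 with NAC. The 4 groups did not overlap, in the order KO, WT, 5% O2 and NAC. KO and WT did not differ by the test (log2 fold change -0.12, 95% interval -0.3 to 0.06, adjusted p = 0.483). CTNNB1 rose with NAC against KO by 0.80 (SE 0.08, 95% interval 0.62 to 0.98, adjusted p = 2.7e-05), a 1.74-fold difference in the same direction for both libraries, and it was 0.88 higher once the length and GC trend was removed (adjusted p = 5.9e-05). It rose at 5% O2 against KO by 0.33 (SE 0.08, adjusted p = 0.034). The 5% O2 call was lost without any 1 of the WT, KO or 5% O2 libraries, with adjusted p from 0.051 to 0.311, but held after removal of the trend (0.42, adjusted p = 0.0177). With NAC, CTNNB1 was also higher than at 5% O2, by 0.47 (SE 0.08, adjusted p = 0.00187), and higher than in WT, by 0.68 (SE 0.08, adjusted p = 1.6e-04). Neither NAC call on CTNNB1 against KO or WT was lost in any alternative.

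JUP encodes plakoglobin, the close relative of beta-catenin that also serves desmosomes (chromosome 17, 41754609 to 41786711, minus strand). It was at 210 and 187 CPM in WT, 263 in both KO libraries, 218 and 256 at 5% O2, and 137 and 169 with NAC. KO libraries were highest and NAC libraries lowest, and neither overlapped another group. JUP was 0.40 higher in KO than in WT (SE 0.11, 95% interval 0.15 to 0.65), which missed the threshold (adjusted p = 0.0994) and was called by DESeq2 (adjusted p = 0.0204). It fell by 0.78 on the log2 scale with NAC against KO (SE 0.12, adjusted p = 2.2e-04), but by 0.31 once the length and GC trend was removed (adjusted p = 0.0441). With NAC it was also lower than at 5% O2, by 0.63 (SE 0.12, adjusted p = 0.00241; -0.51 and adjusted p = 0.05 without 5% O2 replicate 2), and lower than in WT, by 0.37 (SE 0.11, adjusted p = 0.0235). The call against WT was lost without WT replicate 1 (-0.29, adjusted p = 0.165), without NAC replicate 1 (-0.23, adjusted p = 0.123) and after removal of the trend (-0.0048, adjusted p = 0.98), so JUP with NAC was not separated from its WT level. Its transcript had the highest GC content of the 10, at 61.5%.

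CTNNA1 encodes alpha-E-catenin (chromosome 5, 138753425 to 138935034, plus strand). It was at 602 and 540 CPM in WT, 559 and 543 in KO, 552 and 594 at 5% O2, and 412 and 394 with NAC. NAC libraries were below all 6 others, which overlapped. CTNNA1 fell with NAC against KO by 0.45 on the log2 scale (SE 0.08, adjusted p = 0.00101), against WT by 0.50 (SE 0.08, adjusted p = 8.4e-04) and against 5% O2 by 0.51 (SE 0.08, adjusted p = 0.00153). Against KO it was still called after removal of the trend, at -0.25 (adjusted p = 0.0277). LRRTM2 lies within CTNNA1 and shares 445 bases of exon with it, and reads there are left out for both genes.

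CTNND1 encodes p120-catenin, which holds cadherins at the membrane by blocking their uptake (chromosome 11, 57761802 to 57819540, plus strand). It held 70 to 185 counts per library: 4.74 and 4.51 CPM in WT, 4.55 and 4.49 in KO, 3.31 and 4.14 at 5% O2, and 2.74 and 2.34 with NAC. NAC libraries were the lowest and 5% O2 libraries came next. In RefSeq, the read-through gene TMX2-CTNND1 covers 99.4% of CTNND1, which runs past its end by 360 bases, and the read-through row was at 0 in all 8 libraries. The counter leaves out reads that overlap more than 1 gene, so reads in exons that both share are left out; how many were lost was not measured, and the level here is not read as that of p120-catenin mRNA. In those counts, CTNND1 fell by 0.83 on the log2 scale with NAC against KO (SE 0.23, adjusted p = 0.0117). The call was lost without KO replicate 1 (-0.82, adjusted p = 0.0588) or KO replicate 2 (-0.84, adjusted p = 0.056).

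The calls were few in the genotype comparison and many with NAC. In KO against WT, 0 of 10 genes were called by edgeR at the adjusted threshold, against 1.96% of all tested genes (1.34% higher and 0.622% lower). CDH2 and JUP came closest to the threshold, both higher in KO, at adjusted p = 0.0977 and 0.0994. DESeq2 called both at the adjusted threshold, where it called 860 of all tested genes, against 312 in the fit reported. With NAC against KO, CTNNB1 was called higher and CDH4, CTNNA1, CTNND1 and JUP were called lower, 5 of 10 genes against 44.6% of all tested genes, a share near the background. The background was 23.8% higher and 20.8% lower. At 5% O2 against KO, CTNNB1 was called higher and CDH4 lower, 2 of 10 genes against 7.81% of all tested genes (3.68% higher and 4.13% lower). The median log2 fold change of the 10 genes was -0.05 in KO, -0.01 with NAC and 0.02 at 5% O2, against -0.00238, 0.0233 and -2.5e-04 over all tested genes. The study's own rule asks for a log2 change beyond 1 in size with unadjusted p under 0.05. None of the 10 genes passed it in any of 6 comparisons, against 2.57% of tested genes in KO against WT, 9.02% with NAC against KO, 2.02% at 5% O2 against KO, 6.2% with NAC against WT, 3.53% at 5% O2 against WT and 4.42% with NAC against 5% O2. At the adjusted threshold, 6 of 10 genes were called with NAC against WT (38.2% of all genes), CDH2 and CTNNB1 higher and CDH4, CTNNA1, CTNND1 and JUP lower. The CDH4 call against WT (-0.55, adjusted p = 0.0258) was lost after removal of the trend (-0.11, adjusted p = 0.657), in the fit of only the libraries compared (adjusted p = 0.0662), without WT replicate 2 (adjusted p = 0.175) and without NAC replicate 1 (adjusted p = 0.0579). The CTNND1 call against WT was lost without WT replicate 1 (adjusted p = 0.0622), and the JUP call as given with its values. At 5% O2 against WT, 1 of 10 was called (3.27% of all genes), CDH2, and with NAC against 5% O2, 3 of 10 were (29.1%), CTNNB1 higher and CTNNA1 and JUP lower. NAC and 5% O2 were compared with the same 2 KO libraries, so the calls on CTNNB1 and CDH4 in both comparisons share their controls.

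**Figure D2:**
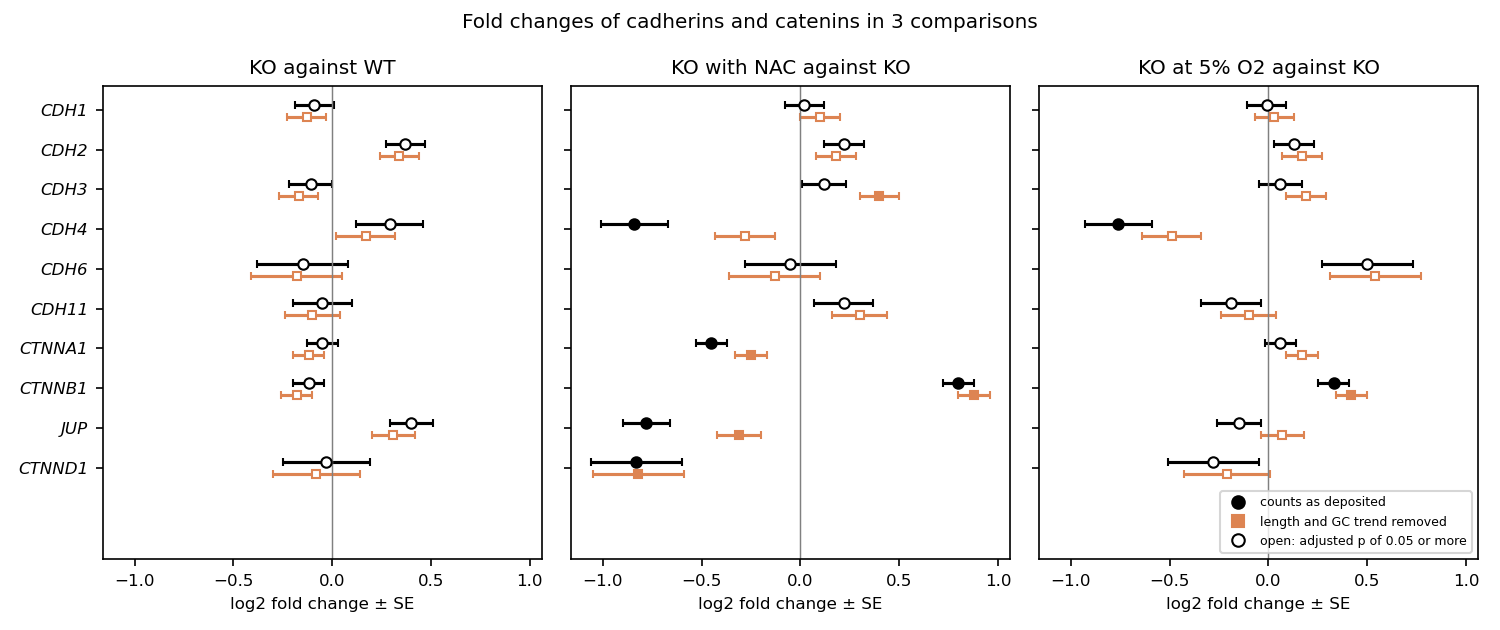
Log2 fold change (horizontal axis; bars are standard errors) of each gene in KO against WT, NAC against KO and 5% O2 against KO, from the deposited counts (circles) and after removal of each library's trend on transcript length and GC content (squares); filled symbols have an adjusted p under 0.05. CTNNB1 lies at 0.80 with NAC and 0.33 at 5% O2, and no circle is filled in KO against WT.

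Fold changes with NAC and at 5% O2 moved with the GC content of transcripts across the whole table. Over 15283 tested genes with a known transcript, Spearman's correlation between GC content and log2 fold change was -0.486 with NAC, -0.325 at 5% O2 and 0.147 in KO against WT, given as a description since genes share libraries. The longest transcripts of CDH6, CTNND1, CDH11, CDH2 and CTNNB1 lay between 40.0% and 43.5% GC, CTNNA1 and CDH1 at 47.8% and 48.2%, CDH3 at 53.2%, and CDH4 and JUP at 59.7% and 61.5%, with a median of 48.4% over the genes. CDH4 and JUP, the most GC-rich, lost the most when the trend was removed, and CTNNB1, CTNNA1, CTNND1 and JUP were still called with NAC against KO. CTNNB1 and CTNND1, whose longest transcripts had 43.5% and 41.0% GC, moved in opposite directions with NAC. For CTNND1, reads in exons shared with the read-through gene are left out, so the GC content of its counted bases is not known.

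**Figure D3:**
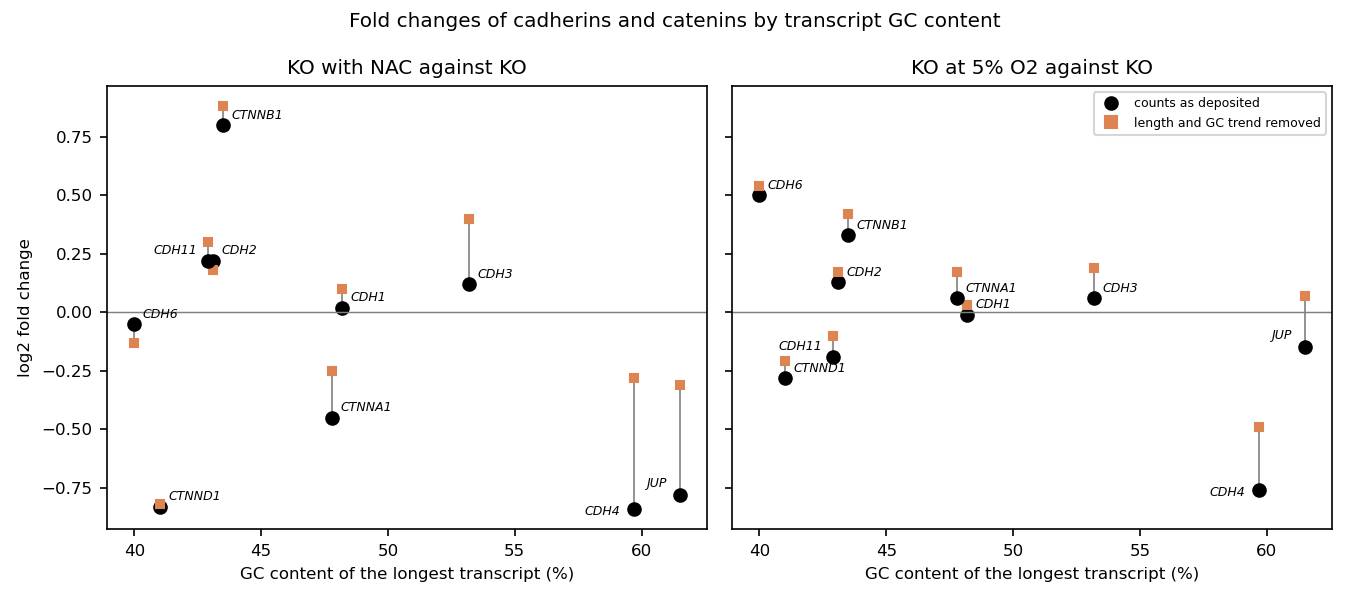
Log2 fold change (vertical axis) against the GC content of the longest transcript in percent (horizontal axis) for the 10 genes, with NAC and at 5% O2, before (circles) and after (squares) removal of the trend. Lines join the values of a gene; CDH4 and JUP move most with NAC, from -0.84 to -0.28 and from -0.78 to -0.31.

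In the cadherin pool, CDH1 and CDH3 kept similar shares in all groups and CDH2 had a higher share in KO cells. As a share of the summed level per kilobase of the 6 cadherins, CDH1 made up 62.1 ± 1.76% in WT (SD, n = 2), 61.2 ± 0.388% in KO, 60.2 ± 0.538% at 5% O2 and 59.7 ± 0.208% with NAC. CDH3 made up 32.3 ± 1.64%, 31.6 ± 0.0629%, 32.7 ± 0.277% and 33 ± 0.365% in the same order. CDH2 made up 3.67 ± 0.0128%, 4.99 ± 0.314%, 5.43 ± 0.398% and 5.61 ± 0.32%. The log2 ratio of CDH1 to CDH2 was 4.11 and 4.05 in WT, 3.55 and 3.69 in KO, 3.39 and 3.56 at 5% O2, and 3.35 and 3.47 with NAC. All 6 KO libraries had a lower ratio than both WT libraries, and the 5% O2 libraries overlapped both of the other KO groups. No test was run on shares or ratios. CDH1 stayed by far the more abundant cadherin in each library.

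With NAC, the balance of the catenins that share the binding site on the cadherin tail moved more, in the counts as deposited. The ratio of CTNNB1 to JUP per kilobase was 1.19 and 1.33 in WT, 0.891 and 0.857 in KO, 1.39 and 1.07 at 5% O2, and 2.79 and 2.46 with NAC. JUP was the more abundant of the pair in KO cells at normal O2 alone, and CTNNB1 exceeded it most with NAC. On the log2 scale the means were 0.33 ± 0.11, -0.19 ± 0.04, 0.29 ± 0.27 and 1.39 ± 0.13 (SD, n = 2). The level of JUP relative to CTNNB1 depends on the gene length used, and with the longest transcript as length the 4 means were 1.10, 0.58, 1.06 and 2.16, all in favour of CTNNB1.

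**Figure D4:**
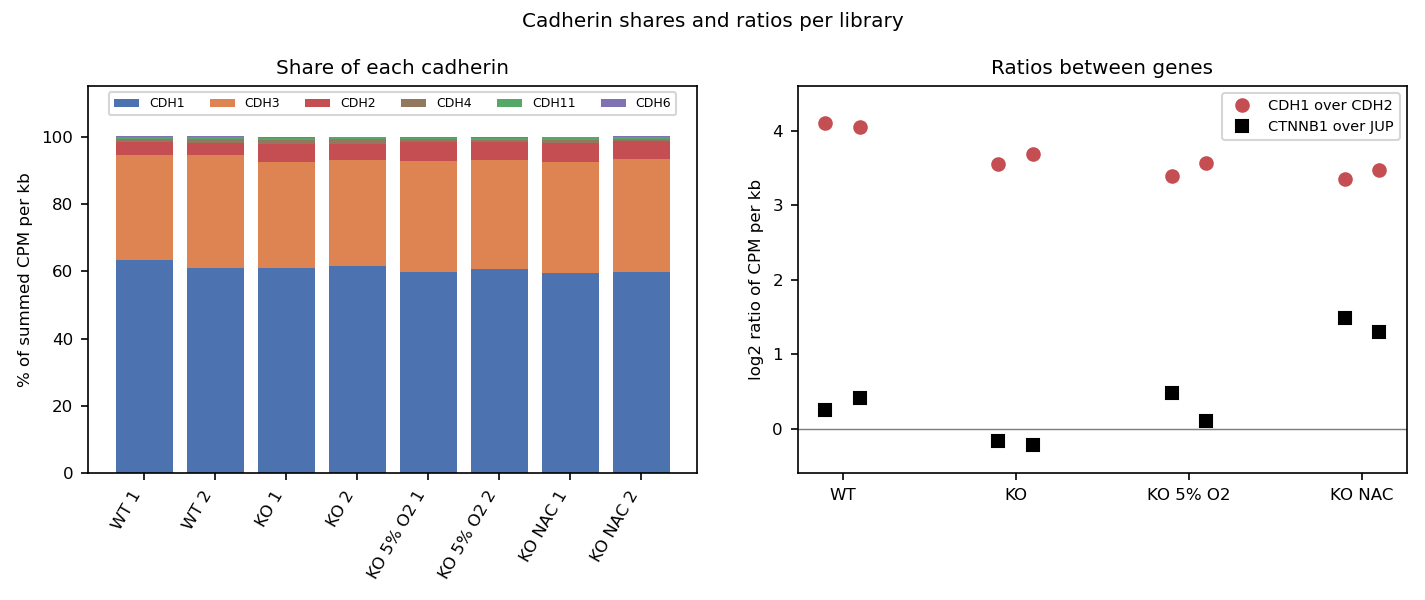
Left, share of each cadherin in the summed CPM per kilobase of the 6 cadherins (percent, stacked from 0) in each library; right, log2 ratios of CPM per kilobase for CDH1 over CDH2 (circles) and CTNNB1 over JUP (squares) in each library. The CDH1 to CDH2 ratio is at least 4.05 in WT and at most 3.69 in KO cells, and the CTNNB1 to JUP ratio is highest with NAC.

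The order of the groups was set beside the tests between neighbours. For CTNNB1, NAC was above 5% O2 by the test. The steps from 5% O2 to WT (adjusted p = 0.18) and from WT to KO (adjusted p = 0.483) missed the adjusted threshold, though the libraries of these groups did not overlap. For CTNNA1, KO was above NAC by the test, and 5% O2, WT and KO were not separated. For JUP the order was KO, 5% O2, WT and NAC, and the step from WT to NAC passed in the fit reported but not in the alternatives given with JUP's values. For the 6 cadherins and CTNND1, no step between neighbouring groups passed.

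Other genes of the same machinery were taken from fixed lists. Of the other classical and type II cadherins, 8 of 13 were tested and 1 was called in these comparisons, CDH24, lower with NAC, where 20.8% of all genes were lower (24.2 and 33.1 CPM against 35.8 and 38.5 in KO, log2 fold change -0.38, adjusted p = 0.0426). The CDH24 call was lost in 9 of 17 alternatives, among them the fit without NAC replicate 1 (-0.17, adjusted p = 0.289).

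Of 27 other adherens junction proteins and catenin relatives, 26 were tested. With NAC, 6 rose and 14 fell, 20 of 26 genes, against the 44.6% of all tested genes called. The median log2 fold change was -0.3. CTNNAL1, an alpha-catenin relative, rose from 80.2 and 86.3 CPM to 158 and 151 (0.90, adjusted p = 3.7e-05), and CTNNA2, the neural alpha-catenin, rose from 3.55 and 2.82 to 6 and 5.75 (0.88, adjusted p = 0.00634; lost without KO replicate 2). AFDN, which encodes afadin, the scaffold between nectins and actin, fell from 226 and 200 CPM to 110 and 104 (-0.99, adjusted p = 3.1e-05), and CTNND2, the neural relative of p120-catenin, fell from 12.6 and 12.4 to 5.85 and 6.81 (-0.98, adjusted p = 0.00106). After removal of the trend, 6 were higher and 9 lower, against 31.6% of all genes. At 5% O2, 3 of 26 fell, against 4.13% of all genes. More of the list were called when either NAC library was left out, as were more of all tested genes. AFDN (-0.50, adjusted p = 0.0207) and PTPRM, a receptor phosphatase that binds cadherins (-0.68, adjusted p = 0.0299), were the largest in the fit reported. Neither was called after removal of the trend (adjusted p = 0.0824 and 0.119). In KO against WT, PTPRM was higher (11.7 and 10.7 CPM against 6.56 and 6.4, log2 fold change 0.79, adjusted p = 0.0328), and it missed the threshold after removal of the trend (adjusted p = 0.0596). The PTPRM calls and the AFDN call at 5% O2 were each lost when 1 of several libraries was left out.

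Desmosomes, where JUP also acts, had 7 of 9 listed genes tested. With NAC, 2 were called higher and 2 lower, against 23.8% and 20.8% of all genes. After removal of the trend, 1 was higher and 1 lower with NAC, against 18% and 13.6% of all genes. In KO against WT, 1 was higher, against 1.34% of all genes. At 5% O2, 1 was higher and 1 lower, against 3.68% and 4.13%. DSP, which encodes desmoplakin, the plaque protein that ties JUP to keratin filaments, was at 206 and 183 CPM in WT, 278 and 254 in KO, 180 and 203 at 5% O2, and 126 and 111 with NAC. DSP rose in KO against WT (0.45, adjusted p = 0.0472) and fell with NAC (-1.17, adjusted p = 1.7e-05) and at 5% O2 (-0.47, adjusted p = 0.0222). The NAC call held in all 17 alternatives, and the others were each lost after removal of the trend (adjusted p = 0.0783 and 0.0941) and without some single libraries; the KO call was lost with RLE or upper quartile normalization too. PKP3, a plakophilin of low level, also fell with NAC (4.69 and 6.83 CPM to 2.95 and 2.4, -1.10, adjusted p = 0.00301), a call lost after removal of the trend (adjusted p = 0.095) and without KO replicate 2. PERP, a desmosome-associated membrane protein, rose with NAC (0.45, adjusted p = 9.7e-04) and at 5% O2 (0.32, adjusted p = 0.0389), and neither call held after removal of the trend. DSG2, the desmosomal cadherin of simple epithelia, rose with NAC (272 and 246 CPM to 315 and 345, 0.35, adjusted p = 0.00612; lost without KO replicate 2).

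All 14 genes of the beta-catenin destruction complex and its partners were tested. With NAC, 1 rose and 9 fell, against 23.8% and 20.8% of all genes, and the median log2 fold change was -0.47. Those that fell were both genes of the complex and partners such as TCF/LEF factors. CSNK1A1, the casein kinase that primes beta-catenin for degradation, rose from 225 and 223 CPM to 335 and 298 (0.50, adjusted p = 8.3e-04). APC2 fell from 3.71 and 3.91 CPM to 1.25 and 1.64 (-1.40, adjusted p = 0.00364), and TCF7, a TCF/LEF factor, fell from 18.9 and 19.6 to 9.29 and 9.42 (-1.04, adjusted p = 2.4e-04). APC2 was not called after removal of the trend (adjusted p = 0.338), TCF7 was (adjusted p = 0.0142), and the list had 1 higher and 6 lower calls, against 18% and 13.6% of all genes. At 5% O2, 3 of 14 fell, against 4.13% of all genes. Here too, more of the list and more of all tested genes were called when either NAC library was left out. TCF7 (-0.63, adjusted p = 0.0329) and TCF7L1 (-0.43, adjusted p = 0.0233) were the largest in the fit reported. Neither was called after removal of the trend (adjusted p = 0.152 and 0.163). TCF7L1, the TCF factor known as a repressor in pluripotent cells, was higher in KO than in WT (179 and 183 CPM against 135 and 131, log2 fold change 0.45, adjusted p = 0.0343), with an adjusted p of 0.0648 after removal of the trend. The TCF7L1 calls and the TCF7 call at 5% O2 were lost without some single libraries.

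Of 10 transcription factors known to repress CDH1, 8 were tested. With NAC, 1 was higher and 1 lower, against 23.8% and 20.8% of all genes, and both numbers changed when single libraries were left out. TCF3, which encodes the E2A proteins, fell from 423 and 441 CPM in KO to 219 and 233 with NAC (-0.93, adjusted p = 1.7e-05) and to 315 and 347 at 5% O2 (-0.38, adjusted p = 0.0213; not called after removal of the trend, adjusted p = 0.487). TWIST2 was called higher with NAC on 1 library: it was at 2.04 CPM in NAC replicate 1 and at 0 in NAC replicate 2 and in both KO libraries. CDH1 itself was not called in the fit reported.

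All 15 epithelial state genes were tested. With NAC, 3 rose and 3 fell, against 23.8% and 20.8% of all genes. CLDN7, a tight junction claudin, rose from 141 and 156 CPM to 273 and 258 (0.84, adjusted p = 3.1e-05), and EPCAM, an adhesion molecule that marks hESCs, rose from 171 and 175 to 299 and 288 (0.76, adjusted p = 4.3e-05). The epithelial transcription factors OVOL1 (-0.69, adjusted p = 5.6e-04) and GRHL2 (-0.57, adjusted p = 4.2e-04) fell. After removal of the trend, 7 of the 15 were higher and 2 lower, against 18% and 13.6% of all genes. With the trend kept, the number called higher depended on which NAC library was in the fit. At 5% O2, EPCAM (0.52, adjusted p = 0.00918) and KRT19, a simple epithelial keratin (0.37, adjusted p = 0.0329), rose; EPCAM missed the threshold after removal of the trend (adjusted p = 0.0538), and both calls were lost without some single libraries.

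Mesenchymal and fibroblast genes, of which 14 of 17 were tested, had 5 higher and 1 lower calls with NAC, against 23.8% and 20.8% of all genes, and in the fit reported no calls in KO against WT or at 5% O2. Some of the list were called in both of these comparisons when either NAC library was left out, as were more of all tested genes. The number of higher calls with NAC depended on which NAC library was in the fit. The genes with the largest rises were high in NAC replicate 1 alone. COL6A3 was at 103 CPM there and at 1.04 in NAC replicate 2, against 1.14 and 1.75 in KO, and PDGFRB was at 27.7 and 2 against 1.17 and 1.41. Without that library COL6A3 had a log2 fold change of -0.48 and PDGFRB one of 0.63, and neither call held. COL5A1 fell with NAC (39.3 and 38.1 CPM to 17.6 and 28, -0.77, adjusted p = 0.00494), and was not called after removal of the trend (adjusted p = 0.852). Without NAC replicate 1, the calls on CTNNB1, CDH4, CTNNA1, CTNND1 and JUP with NAC against KO all held, and CDH2 and CDH3 were called higher besides.

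**Figure D5:**
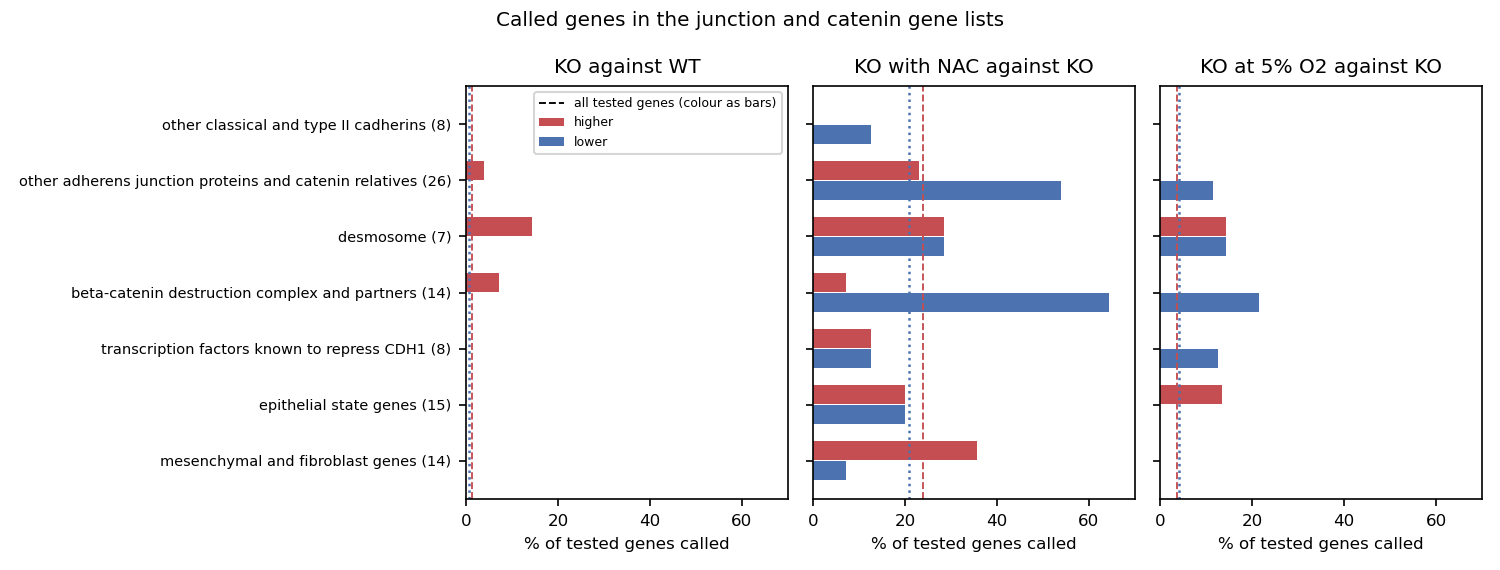
Percent of the tested genes of each list called higher (red) or lower (blue) at an adjusted p under 0.05 in 3 comparisons, with the number tested in brackets; vertical lines give the same for all tested genes. With NAC, 14 of 26 adherens junction genes and 9 of 14 genes of the list of the destruction complex and its partners were lower, against 20.8% of all genes. After removal of the length and GC trend (not drawn), 9 and 6 were lower, against 13.6% of all genes.

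For 9 of the 10 genes, the tested gene of most alike pattern was found by Pearson's r of log2 CPM over the 8 libraries, as a description of libraries that share depth and base composition. The closest was OSTC for CTNNB1 (r = 0.997), PHLPP1 for CTNND1 (0.994), SAE1 for CTNNA1 (0.992), NCDN for JUP (0.989), SMCO4 for CDH3 (0.98), ARHGAP17 for CDH4 (0.98), MERTK for CDH11 (0.978), ZNF681 for CDH2 (0.972) and A2ML1 for CDH6 (0.903). The lowest of these values belonged to CDH6.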

How the data were processed

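RNA of WA26 hESCs was sequenced after a library kit that does not mark strand. The deposited values are raw counts: the authors used trim-galore, then hisat2 (hg38), then featureCounts with its defaults; the annotation is not given in the sources used here. By default, reads over several genes or places are left out, and antisense genes cannot be told apart. Of 12 labelled samples, 8 had a column, and 4 treated WT libraries were not analysed here. Low genes were removed (filterByExpr, minimum count 10). TMM scaling and the quasi-likelihood test came from edgeR 4.0.16 (R 4.3.3), in one fit of 8 libraries with one term per group and 4 residual degrees of freedom; Benjamini-Hochberg adjustment ran over 15916 genes. Each standard error is the size of the log2 fold change over the square root of F. The biological coefficient of variation was 13.7%. Replicates differed by more than sampling noise (chi-square per degree of freedom 9.8 to 32.3), and intervals cover the spread between libraries. Level per kilobase used union exon length.

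Alternatives were DESeq2 1.42.0, upper quartile or RLE scaling, another filter and none, a replicate block, removal of a smooth trend with length and GC content (mgcv 1.9.3; known for 96% of tested genes), a fit of only the libraries compared, and leaving out each library. The fits were tested on simulated data. The genes and lists were chosen with earlier results of these data known. Named are the 10 genes, UBQLN1, and of each list up to 2 genes per direction with the largest change among those called. Promoter windows are RefSeq's; 31-base words were searched on 25 chromosomes and 430 other scaffolds. The gene most alike in pattern to CDH1 is not reported here.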

Additional observations from a re-analysis of the deposited data

How the results depend on the processing

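Of the 187 fold changes recomputed for KO against WT (the 10 genes and UBQLN1), 174 kept their direction and side of the threshold; for NAC against KO it was 153 of 170, and for 5% O2 against KO 152 of 170. In KO against WT, 2 of the 10 genes were called higher with DESeq2 or with no filter on low counts (CDH2 and JUP), 1 in a fit of only the libraries compared (JUP), and 0 to 2 when a library was left out. With NAC against KO, 2 were higher (CDH3 and CTNNB1) after removal of the length and GC trend, with or without the replicate block, and 2 lower (CTNNA1 and CTNND1) with trend removal and block; leaving out a library gave 1 to 3 higher and 3 to 4 lower. At 5% O2 against KO, 0 were lower after trend removal with or without the block, and leaving out a library gave 0 to 1 in each direction. With NAC against WT, 2 were lower after trend removal with or without the block and in the fit of only the libraries compared. The number lower also changed when single libraries were left out. At 5% O2 against WT, leaving out a library gave 0 to 1 higher, and for NAC against 5% O2 it gave 1 to 2 in each direction. Reversals were of small uncalled values. With NAC, CDH1 was at -0.01 under RLE or DESeq2, at -0.0033 with only the libraries compared and from -0.15 to 0.17 when a library was left out, CDH3 ran from -0.06 to 0.27 and CDH6 from -0.22 to 0.15. In KO against WT, leaving out a library took CDH6 from -0.35 to 0.03, CDH11 from -0.10 to 0.0098, CTNNA1 from -0.13 to 0.03 and CTNND1 from -0.07 to 0.005. At 5% O2, CDH1 was at 0.03 and JUP at 0.07 after trend removal with or without the block, and CDH1 ran from -0.06 to 0.03 when a library was left out. The cause was not tested. With the longest transcript as gene length, the CDH1 share was 57.9%, 56.7%, 55.5% and 54.9% in WT, KO, 5% O2 and NAC, and the log2 ratio of CDH1 to CDH2 was 3.32, 2.86, 2.71 and 2.65. Calls over all genes ranged in KO against WT from 194 to 1252 (312 in the fit reported; 64 to 1311 with a library left out), at 5% O2 against KO from 394 to 3009 (1243; 36 to 2763), at 5% O2 against WT from 514 to 1350 (520; 99 to 1586), with NAC against WT from 3736 to 6612 (6076) and for NAC against 5% O2 from 2855 to 5310 (4635; 1354 to 5468).

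The labels give the groups the same replicate numbers. Deviations of same-numbered libraries had correlations from -0.0226 to 0.0816 across genes, so no broad shared effect of the number was seen. These values cannot show whether same-numbered libraries share a clone or batch. With the replicate block alone, 366 genes were called in KO against WT, 7173 with NAC and 1417 at 5% O2, and the same number of the 10 genes was called as without it in all 6 comparisons; with trend removal and block, JUP with NAC had an adjusted p of 0.0554. With 2 libraries per group, the standard errors were largest for CDH6, CTNND1 and CDH4, which had few counts.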

Other observations

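Rows for read-through genes were often empty, as for TMX2-CTNND1. Of 146 rows named for 2 joined genes that both have rows of their own, 95 (65.1%) were at 0 in every library, against 7042 (25%) of the other rows. Reads that such a row shares with the genes it joins are left out for both.

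The 2 NAC libraries differed for both cadherins of the abundant pair, at 455 and 566 CPM for CDH1 and 263 and 331 CPM for CDH3, and their summed cadherin level was 126 and 156 CPM per kb, against 133 to 146 in the 6 other libraries.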
